A study of Homo sapiens with 68 samples.

Results

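The comparison set RBFOX2 binding sites mapped from 10000 HEK293T cells against those mapped from 50000 HEK293T cells, and asked which target genes and sites were kept, lost or new at the smaller cell number. It used 4 of the 68 libraries of the series, chosen by their labels: 2 libraries named RBFOX2_10k, treated with 0.001 U of RNase, and 2 named RBFOX2_50k_lowRNase, treated with 0.005 U. The RNase dose per 1000 cells was therefore equal, at 0.0001 U, in both groups. HEK293T is a human embryonic kidney cell line that grows as an adherent culture. All 4 libraries came from cells crosslinked with ultraviolet light, used the same antibody against RBM9, an older name of RBFOX2, and were purified by polyacrylamide gel electrophoresis (PAGE).

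RBFOX2 is an RNA-binding protein that recognises GCAUG and UGCAUG elements, many of them in introns beside alternative exons. Binding downstream of an exon is known to favour its inclusion, and binding upstream to favour skipping. Crosslinking and immunoprecipitation (CLIP) freezes a protein on the RNA it touches, trims the RNA with RNase, pulls the complex down with an antibody and sequences the attached fragment. TLC-CLIP is a version of this assay built for small cell numbers. Libraries from uncrosslinked cells (noUV_RBFOX2) hold fragments that came through the purification without ultraviolet crosslinking.

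Each library was described by the authors' list of peaks, with a gene identifier, a deposited p-value and a number in the peak name that was read here as the reads over the peak. That reading rests on the values, because the number rose as the deposited p fell (Spearman's rho between -0.945 and -0.930 in the 4 libraries) and the lists do not say what it is. The lists held 260610 and 208407 peaks at 50k, and 140539 and 167449 at 10k. The mean was 234508 ± 36913 peaks at 50k and 153994 ± 19028 at 10k (SD, n = 2 each), so both 10k lists were shorter than both 50k lists. The listed reads summed to 6535194 and 4869214 at 50k and to 2566830 and 3110859 at 10k. These sums cover listed peaks only, so the sequencing depth is unknown, and cell number and depth cannot be told apart. The 10k and 50k libraries were deposited under separate blocks of accessions and the labels give no preparation date, so preparation and cell number cannot be told apart either. The lowest read number listed was 4 at 50k and 5 at 10k, and a place below these numbers is missing from a list whether or not it was bound.

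Peaks of the 4 libraries that overlapped on the same strand were taken as 1 site, which gave 422206 sites and 16452 gene identifiers. The identifiers could not be paired with gene symbols from the sources used here, so places are given by their position in build hg19 and no gene function or gene class is assigned. The tissue label was not checked against marker genes for the same reason.

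At the smaller cell number most target genes were found again, while a larger share of the sites was not. Of 13583 gene identifiers listed in both 50k libraries, 11736 (86.4%) were listed in both 10k libraries, 1158 (8.53%) in 1 of them and 689 (5.07%) in neither. Of 97608 sites listed in both 50k libraries, 40565 (41.6%) had a peak in both 10k libraries, 27896 (28.6%) in 1 and 29147 (29.9%) in neither. The gene of a lost site was itself rarely lost, as 98.9% of the 29147 lost sites lay in a gene identifier that at least 1 10k library listed.

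The read number in the 50k libraries ordered these outcomes at every step. Among sites whose lower 50k read number was 4 to 9, 48.8% of 40338 were lost. The lost share was 23.8% at 10 to 19 reads, 10.7% at 20 to 49 reads and 6.03% at 50 to 99 reads. At 100 reads or more, 65 of 3025 sites (2.15%) were lost and 94.2% were in both 10k libraries. Gene identifiers followed the same order, with 31.5% lost at 4 to 9 reads, 10.4% at 10 to 19, 3.67% at 20 to 49, 1.09% at 50 to 99 and 0.309% at 100 to under 500. None of the 1789 gene identifiers with 500 reads or more in the lower 50k library was lost, and all 1789 were in both 10k libraries. The median lower 50k read number was 125 for kept gene identifiers, 11 for those in 1 10k library and 7 for lost ones. Lost gene identifiers had few sites: 30.0% of the 689 had a single site, against 2.74% of the 11736 kept ones, and the median was 2 sites against 22. For 61 of the 689 lost identifiers (8.85%), a 10k peak under another identifier overlapped the listed place, so the identifier was missing and the place was not.

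**Figure D1:**
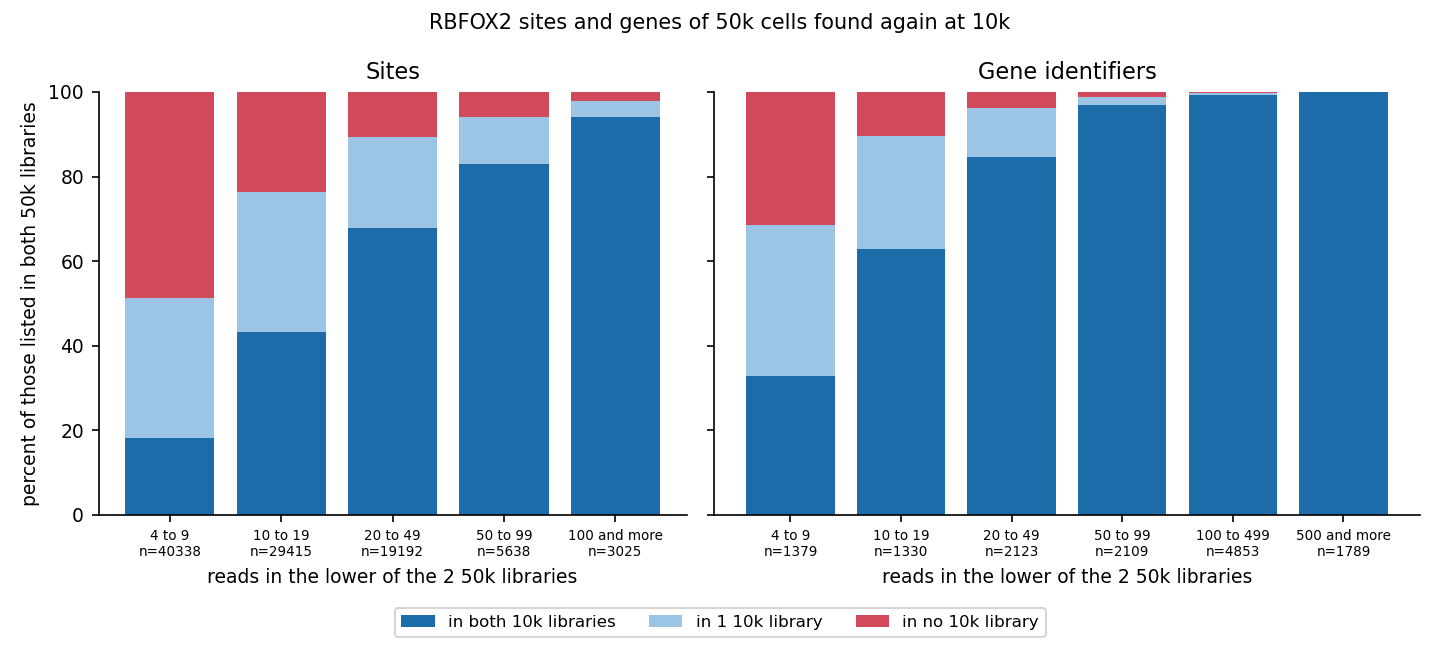
Stacked bars give the percent of sites (left) and gene identifiers (right) of both 50k libraries that were listed in both, 1 or neither of the 10k libraries, by the reads in the lower 50k library. The lost share of sites falls from 48.8% at 4 to 9 reads to 2.15% at 100 reads or more, and no gene identifier with 500 reads or more was lost.

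A second 50k library misses sites too, and it gives the measure against which the 10k libraries can be read. Of the peaks of a 50k library, the other 50k library overlapped 50.1% on average (45.0% and 55.2%), and a 10k library overlapped 35.0% (31.8% to 38.3% over the 4 pairs). The gap was -15.1 percentage points, with -16.2 for the first 10k replicate and -14.1 for the second. It was -13.0 points at 4 to 9 reads, -20.4 at 10 to 19, -15.6 at 20 to 49, -12.0 at 50 to 99 and -5.35 at 100 reads or more. In the class of 100 reads or more, replicate overlap was 98.7% and overlap by 10k was 93.3%. With 2 libraries against 2 an exact permutation test cannot give a two-sided p below 0.333, so these gaps are given as values without a test.

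Part of the gap moved with the length of the lists. When each list was shortened to its 134884 positions with the smallest deposited p, the site gap was -11.1 points. For gene identifiers, the other 50k library listed 92.4% and a 10k library 85.8%, a gap of -6.60 points, and with lists of equal length this gap was 0.12 points in the opposite direction. The same shortening put the lost share of sites at 20.2% in place of 29.9%. It put the share of 10k sites that were new at 14.8% in place of 10.6%.

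Seen from the 10k side, most sites were already in the larger-cell lists. Of 55796 sites listed in both 10k libraries, 5932 (10.6%) had no peak in either 50k library, and of 12150 gene identifiers in both 10k libraries, 97 (0.798%) were new. With lists of equal length, 471 of 11955 gene identifiers (3.94%) were new and 216 of 11512 (1.88%) were lost, so the order of the lost share (5.07% in the full lists) and the new share turned over. A 50k library overlapped 51.5% of the peaks of a 10k library, more than the other 10k library did (42.6%). At 100 reads or more the order turned, with 96.5% overlapped by a 50k library and 98.5% by the other 10k library. New sites were 16.3% of those with 4 to 9 reads in the lower 10k library, 6.88% at 10 to 19, 3.25% at 20 to 49 and 1.36% at 50 to 99. At 100 reads or more the share was 2.99%, or 27 of 902 sites. Of the 97 new gene identifiers, 79 had 4 to 9 reads and 14 had 10 to 19.

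Pairs of libraries from different cell numbers give another yardstick for sites found in exactly 2 lists. Sites in both 10k libraries alone numbered 5932, while the 4 pairs of 1 50k and 1 10k library alone shared 6055 to 11497 sites, with a mean of 8627. Sites in both 50k libraries alone numbered 29147. With lists of equal length the 3 values were 7743 for the 10k pair, 5870 to 6506 for the mixed pairs and 13577 for the 50k pair. The 10k pair was thus below the mixed pairs in the full lists and above all 4 of them in the equal lists.

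**Figure D2:**
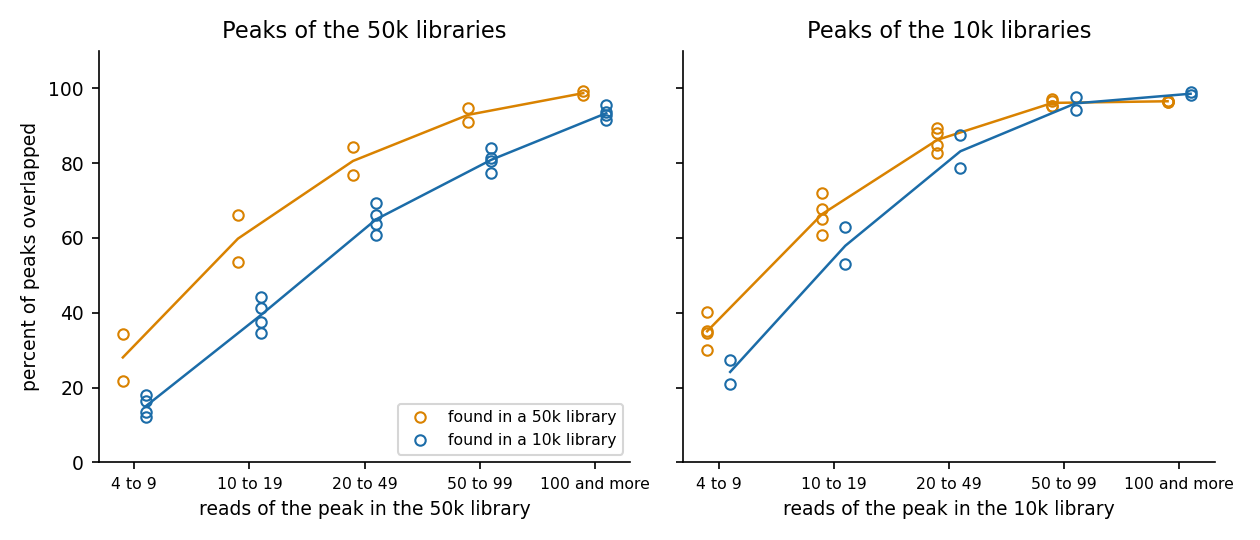
Each circle is the percent of peaks of 1 library (left, 50k libraries; right, 10k libraries) overlapped by a peak of 1 other library, by the reads of the peak, and lines join the means. For peaks of the 50k libraries the 10k means lie below the replicate means in every class, from 15.0% against 28.0% at 4 to 9 reads to 93.3% against 98.7% at 100 reads or more.

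The kept sites with the most reads were few and held very many reads. The place with the highest lower 50k read number, chr11:62609117-62609282 on the minus strand, had 22905 and 16726 reads at 50k and 22768 and 28124 at 10k. The second, chr10:103124631-103124701 on the minus strand, had 11848 and 10611 reads at 50k and 3455 and 3923 at 10k. The mitochondrial place chrM:1673-1777 on the plus strand had 6446 and 6362 reads at 50k and 7578 and 7218 at 10k. Thus the first and the third places had a higher mean read number at 10k, in shorter lists, while the second had fewer reads in both 10k libraries. The place chr1:109642841-109643014 on the plus strand had 7687 and 6327 reads at 50k and 2949 and 3868 at 10k. The place chrX:73071188-73071762 on the minus strand had 5010 and 4634 reads at 50k and 2088 and 2106 at 10k. Both were lower in reads at 10k and, as shares of the listed reads, did not pass the test described below. All of these kept places, taken at 1 site per gene identifier, also had a peak in both uncrosslinked libraries. The first had 8466 and 11540 reads there.

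The lost sites with the most reads were pieces beside other peaks. The 5 with the highest lower 50k read number lay 9 to 80 nt from a 10k peak on the same strand. The mitochondrial place chrM:2528-2562 had 2259 and 2282 reads at 50k and none at 10k, and a 10k peak of 4475 reads lay 80 nt away. It had 15735 and 18170 reads in RBFOX2_50k_noPAGE and 4470 and 5132 in the uncrosslinked libraries. The place chrX:73071772-73071815 had 2166 and 990 reads at 50k, and the nearest 10k peak lay 37 nt away with 975 reads. The place chr3:160232708-160232797 on the minus strand had 831 and 644 reads at 50k, with a 10k peak of 1668 reads 21 nt away. For chr11:65268179-65268257 the 50k reads were 599 and 435 and the nearest 10k peak was 54 nt away with 314 reads. For chr7:99949743-99949814 they were 536 and 403, with a 10k peak of 213 reads 9 nt away. These 5 places were therefore missing as peaks while 10k reads were listed close by.

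A 10k peak lay within 30 nt of 7.64% of the 29147 lost sites, within 100 nt of 23.1% and within 1000 nt of 65.9%. For the 65 lost sites with 100 reads or more the shares were 18.5%, 50.8% and 84.6%. For the 5932 new sites, a 50k peak lay within 30 nt of 11.5%, within 100 nt of 32.7% and within 1000 nt of 81.7%. The gene identifier of a new site was listed in at least 1 50k library for 99.2% of them.

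The new place with the most reads stood apart from every other member. It was a stretch of 16 nt, chr15:87435269-87435284 on the plus strand, listed in each 10k library as 4 touching pieces with equal read numbers. It held 21908 and 27501 reads at 10k, which ranked 3 in both lists, and it was absent from both 50k lists, whose nearest peak lay 1142926 nt away with 8 reads. Because the 4 pieces counted as separate sites, its gene identifier summed to 87632 and 110004 reads and led the new gene identifiers. Over all 68 libraries the place was listed in 12, which form 6 groups, all labelled with 10000 or 1000 cells. The 2 libraries named Background_75-100kDa, made with an antibody against hnRNP C1/2, had 58805 and 73432 reads there. RBFOX2_1k had 154 and 122, Background_100-150kDa had 171 and 140, hnRNPc_1k had 94 and 96, and Background_50-75kDa had 10 and 22. It was not listed in hnRNPc_10k, in the uncrosslinked RBFOX2 libraries or in any 50k library. The antibodies of the listing libraries thus differed, and what produced the stretch was not tested.

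The other 4 leading new sites, taken at 1 site per gene identifier, had far fewer reads. The place chrM:2824-2847 had 2493 and 2276 reads at 10k, and a 50k peak of 1623 reads lay 1 nt away. It had 18884 and 19656 reads in RBFOX2_50k_noPAGE and 3759 and 4224 in the uncrosslinked libraries, and no listed peak in RBFOX2_1k. It was thus new against RBFOX2_50k_lowRNase and not against RBFOX2_50k_noPAGE. The places named next had no listed peak in RBFOX2_50k_noPAGE. The place chr11:65270937-65271015 had 704 and 620 reads at 10k, with a 50k peak of 434 reads 141 nt away. The place chrX:73044865-73044998 had 459 and 581, and the nearest 50k peak was 747 nt away with 259 reads. The place chr21:44476031-44476107 had 137 and 143, with a 50k peak of 141 reads 70 nt away. All 4 lay in regions where the 50k libraries also had peaks.

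Gene identifiers that were lost with the most reads were short and had 1 site each. They lay at chr17:74557734-74557784 with 312 and 205 reads at 50k, chr9:136216254-136216325 with 329 and 205, and chr19:50000996-50001050 with 213 and 167. The next were chr19:12817286-12817330 with 207 and 167 and chr3:186502604-186502649 with 188 and 163. After the chr15 stretch, the leading new identifier was at chr11:94292174-94292191, with 168 and 150 reads at 10k, and the remaining leaders had at most 41 reads. They lay at chr1:182913556-182913626 with 41 and 24 reads, chr6:122793793-123047451 with 23 and 21, and chr22:42318282-42319000 with 26 and 19.

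Kept, lost and new sites were then looked up in libraries outside the comparison. Kept sites were overlapped by a peak of RBFOX2_50k_noPAGE, from 50000 cells without gel purification, in 69.2% of cases, sites in 1 10k library in 41.8% and lost sites in 28.0% (means of 2 libraries). New sites were overlapped in 20.4%, which was below lost sites. In RBFOX2_1k, from 1000 cells, the shares were 36.0% for kept, 11.8% for sites in 1 10k library, 5.68% for lost and 8.58% for new sites. The share of new sites was thus below that of lost sites in RBFOX2_50k_noPAGE and above it in RBFOX2_1k. In uncrosslinked libraries the shares were 11.8% for kept, 2.63% for lost and 6.84% for new sites. In hnRNPc_10k, with an antibody against another protein, they were 14.8%, 8.69% and 12.9%. RBFOX2_50k_noPAGE was deposited in the same block as the larger-cell libraries of the comparison. RBFOX2_1k, the uncrosslinked libraries and hnRNPc_10k, where new sites lay above lost sites, were deposited in the block of RBFOX2_10k. The uncrosslinked libraries among them were labelled with 50000 cells. The parts of cell number and deposited block in this order were not tested. Median site widths were 125 nt for kept sites and 100 nt for sites in 1 10k library. They were 82 nt for lost and 78 nt for new sites. A wider site can be overlapped more easily, and the part of width in these shares was not tested. The shares are descriptions without a test, since neighbouring sites of 1 gene are not independent.

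Within classes of the lower 50k read number, the shares of kept and lost sites lay apart in RBFOX2_50k_noPAGE in all 5 classes. Read numbers inside a class and site widths were not matched. The median width was 108 nt for kept and 81 nt for lost sites at 4 to 9 reads. At 100 reads or more it was 202 nt and 72 nt. With 4 to 9 reads in the lower 50k library, 48.3% of kept and 20.8% of lost sites had a peak in RBFOX2_50k_noPAGE. With 10 to 19 reads, 64.2% of the 12728 kept sites did, and 38.5% of the lost sites. The pairs of values were 75.8% and 53.9% at 20 to 49 reads, 83.2% and 62.6% at 50 to 99, and 92.2% and 73.1% at 100 reads or more. In the uncrosslinked libraries the shares of kept and lost sites were close at 20 to 49 reads, at 10.9% and 11.1%, and at 50 to 99 reads, at 24.7% and 23.1%. They were 2.71% and 1.04% at 4 to 9 reads and 50.5% and 36.2% at 100 reads or more.

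**Figure D3:**
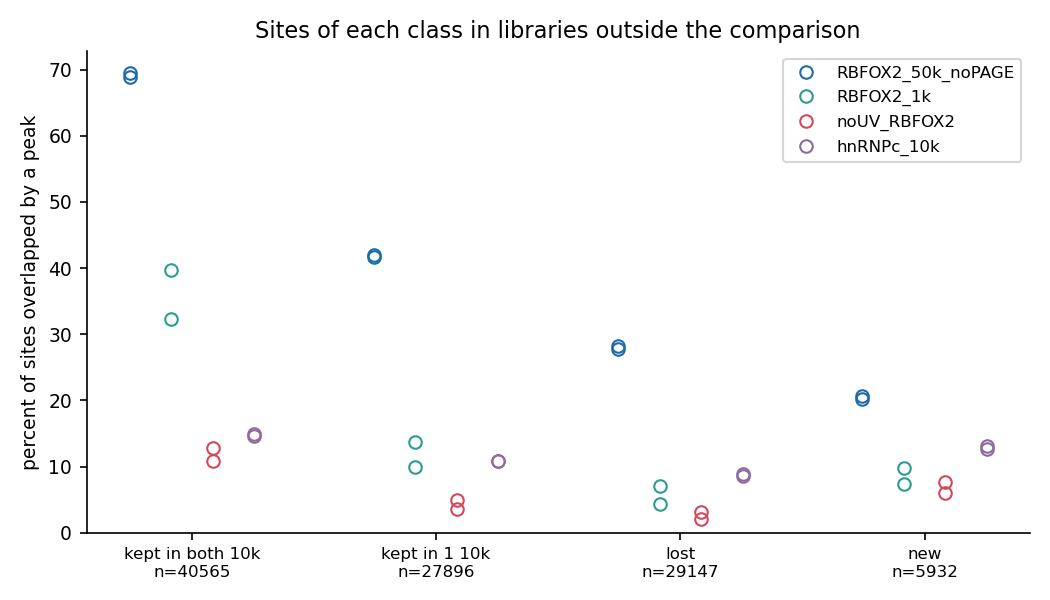
Circles give the percent of sites of each class overlapped by a peak in each of 2 libraries of 4 groups outside the comparison; n is the number of sites in the class. Kept sites lie highest in all 4 groups, and new sites lie above lost sites in RBFOX2_1k, noUV_RBFOX2 and hnRNPc_10k and below them in RBFOX2_50k_noPAGE. RBFOX2_50k_noPAGE shares the deposited block of the larger-cell libraries of the comparison, and the other groups share that of the smaller-cell libraries.

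Among sites present in all 4 libraries, replicates resembled each other more than libraries of different cell number did. Over 40565 kept sites, Pearson's r of log2 reads was 0.903 between the 50k libraries, 0.845 between the 10k libraries and 0.787 to 0.812 across cell numbers. These correlations are across sites, which are not independent replicates. The median best peak at these sites was 82 and 80 nt wide at 50k and 76 nt wide in both 10k libraries. Over the whole lists the order was the opposite, at 62 and 63 nt for 50k and 65 and 64 nt for 10k.

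Read shares were then compared for sites and gene identifiers in all 4 lists with at least 10 reads on average. The share is the reads of a site or gene over all listed reads of its library, with the highest peak of each site counted once, and differences are 10k minus 50k on the log2(reads + 0.5) scale after scaling. Of 35114 sites tested with limma, 1296 (3.69%) were higher and 834 (2.38%) lower at 10k at an adjusted p below 0.05, together 2130 (6.07%). Of 11557 gene identifiers tested, 858 (7.42%) were higher and 1419 (12.3%) lower, together 2277 (19.7%). The groups did not overlap at 49.7% of the sites and 61.1% of the gene identifiers tested. If the 4 libraries were ordered at random, the groups would not overlap in a share of 0.333 of the orderings. Without the first 50k library the calls were 626 sites and 1066 gene identifiers, and without the second they were 823 and 1049, each fewer than the full comparison by over 1.5 times. Whether the replicates are separate cultures is not labelled, so these p-values measure only the spread between these libraries, which may be technical.

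The balance of higher and lower sites depended on the scale. The median difference over all tested sites was 0.10, and after each library was centred on its median the calls were 991 higher and 1222 lower. With mitochondrial sites and the 100 other sites with the most reads left out, an alternative added after seeing the data, they were 1942 higher and 600 lower for sites and 1136 higher and 999 lower for gene identifiers. Peaks with a deposited p below 1e-05 gave 2621 higher and 680 lower sites. Without the first 10k library, lower sites outnumbered higher ones, 1019 to 768. The difference also varied with the read number. The median difference was 0.28 for the 15439 sites with 10 to under 20 mean reads and -0.20 for the 2061 sites with 100 to under 500. It was 0.24 for the 139 sites with 500 or more, of which 45 were higher and 27 lower. Tested sites had to be listed in all 4 libraries, and the part of the lists' lowest read number in these medians was not tested.

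Among the gene identifiers, ENSG00000164346.5 had the largest difference upward. It had 14 and 6 reads at 50k and 51 and 75 at 10k, a difference of 3.58 (SE 0.54, adjusted p = 0.000495). ENSG00000248498.3 had 31 and 16 reads at 50k and 95 and 122 at 10k, and its share rose by 3.15 on the log2 scale (SE 0.40, adjusted p = 0.000176). Both 10k libraries exceeded both 50k libraries for each of them, also in raw reads. ENSG00000204839.4 had 339 and 228 reads at 50k and 6 and 27 at 10k, and fell by 3.48 (SE 0.49, adjusted p = 0.000338). ENSG00000188191.10 had 865 and 539 reads at 50k and 33 and 46 at 10k, and fell by 3.21 (SE 0.23, adjusted p = 3.14e-06). These 4 identifiers, and the higher and lower sites that follow, were chosen after their values were seen.

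The site with the largest upward difference was chr14:102549391-102549524 on the minus strand. It had 35 and 33 reads at 50k and 132 and 194 at 10k, a difference of 3.12 (SE 0.31, adjusted p = 4.46e-09). It was listed in both uncrosslinked libraries, with 64 and 67 reads. The place chr1:11969908-11969972 on the minus strand had 88 and 70 reads at 50k and 284 and 309 at 10k, and rose by 2.81 (SE 0.26, adjusted p = 7.48e-10). It had 725 and 788 reads in RBFOX2_50k_noPAGE. The place chr11:1994474-1994623 on the plus strand had 9 and 8 reads at 50k and 37 and 33 at 10k, and rose by 2.88. It had no listed peak in the libraries without gel purification or without crosslinking. Of the kept places with the most reads, chr11:62609117-62609282 rose by 1.27 (SE 0.10) and chrM:1673-1777 by 1.11 (SE 0.14). The place chr10:103124631-103124701 fell by 0.71 (SE 0.13, adjusted p = 0.000348). Its call was lost without the second 50k library, at a difference of -0.59.

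The site with the largest downward difference was chr6:133137941-133138013 on the plus strand. It had 382 and 207 reads at 50k and 12 and 28 at 10k, and fell by 3.00 (SE 0.33, adjusted p = 4.74e-08). It had no listed peak in RBFOX2_1k and 86 and 103 reads in the uncrosslinked libraries. The place chr1:173836813-173836883 on the minus strand had 1150 and 762 reads at 50k and 50 and 104 at 10k, and fell by 2.79 (SE 0.24, adjusted p = 2.62e-10). It had 4040 and 4020 reads in RBFOX2_50k_noPAGE and 17 and 15 in RBFOX2_1k. The place chr15:90172560-90172815 on the plus strand had 251 and 129 reads at 50k and 12 in each 10k library, and fell by 2.95. The place chrX:70351553-70351812 on the plus strand had 105 and 74 reads at 50k and 6 and 8 at 10k, and fell by 2.68. It was listed in none of the 10 libraries outside the comparison that were searched for it.

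Of the 6 sites with the largest fall, 4 lay under a pair of gene identifiers on the same strand, 1 of them short and inside the other. This arrangement was then counted over all tested sites as sites under at least 2 identifiers of which 1 spanned at most 400 nt of listed peaks and another over 1000 nt. Because it was defined from the results, its counts are a description. There were 293 such nested sites, of which 146 (49.8%) fell and 9 rose, with a median difference of -0.90, beside 2.38% lower and a median of 0.10 over all tested sites. Sites under 2 or more identifiers without such nesting had 74 of 2242 lower (3.30%). Between 89 and 154 of the nested sites were lower over 9 other settings, which tested 253 to 293 of them, with medians between -1.09 and -0.79.

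Most of the lower nested sites had a peak in both uncrosslinked libraries. Of 212 nested sites with such peaks, 135 (63.7%) were lower, with a median of -1.21. Over all 2630 tested sites with such peaks, 10.5% were lower and 11.4% higher. Of the 81 nested sites without a peak in both uncrosslinked libraries, 11 (13.6%) were lower, with a median of -0.00087. Over all tested sites without a peak in both, 1.72% were lower. Those 81 nested sites had fewer reads than the 212, with a median of 21.3 mean reads against 135. Between 100 and under 500 mean reads, 88 of 122 nested sites (72.1%) were lower, against 223 of 1939 other sites (11.5%). The 293 sites held 1.41% and 1.37% of the listed reads at 50k and 0.848% and 0.920% at 10k. Their share was 2.42% and 2.62% in the uncrosslinked libraries, 2.48% and 2.60% in RBFOX2_50k_noPAGE and 0.106% in each hnRNPc_10k library. In the 1000-cell libraries, 1.08% and 1.16% of the listed reads lay there. Among short nested identifiers themselves, 184 were tested, of which 88 were lower and 5 higher, beside 12.3% lower and 7.42% higher over all gene identifiers tested.

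Mitochondrial sites moved the other way. Of 42 tested, 22 (52.4%) were higher at 10k and none was lower, beside 3.69% higher and 2.38% lower over all tested sites. Their median difference was 0.91, beside 0.10 over all tested sites. Higher calls numbered 13 to 27 over the 8 other settings that kept these sites, with medians from 0.70 to 1.17 and no lower call. Peaks on the mitochondrial chromosome held 1.54% and 1.81% of the listed reads at 50k and 4.52% and 3.57% at 10k. The share was 20.0% and 18.0% in the uncrosslinked libraries and 6.89% and 6.02% in hnRNPc_10k. The mitochondrial and the nested sites were thus both rich in the uncrosslinked libraries and differed in opposite directions between 50k and 10k. The 100 positions with the most reads held 9.93% and 10.6% of the listed reads at 50k and 20.1% and 17.5% at 10k. At 10k these positions include the 4 pieces of the chr15 stretch, each counted separately. Together the pieces hold 87632 of 2566830 and 110004 of 3110859 listed reads, and none at 50k. The part of uncrosslinked RNA in these differences was not tested.

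**Figure D4:**
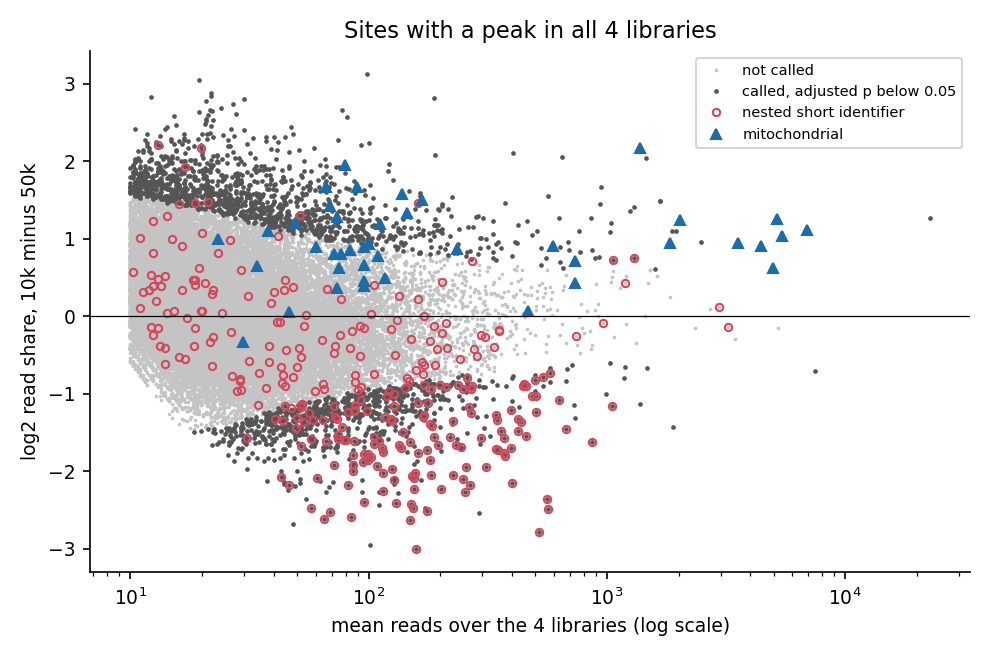
Each point is 1 of 35114 sites listed in all 4 libraries; the x axis is mean reads on a log scale and the y axis the log2 difference in read share, 10k minus 50k. Red circles mark the 293 nested sites (median -0.90), blue triangles the 42 mitochondrial sites (median 0.91), and dark points the 2130 called sites.

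**Figure D5:**
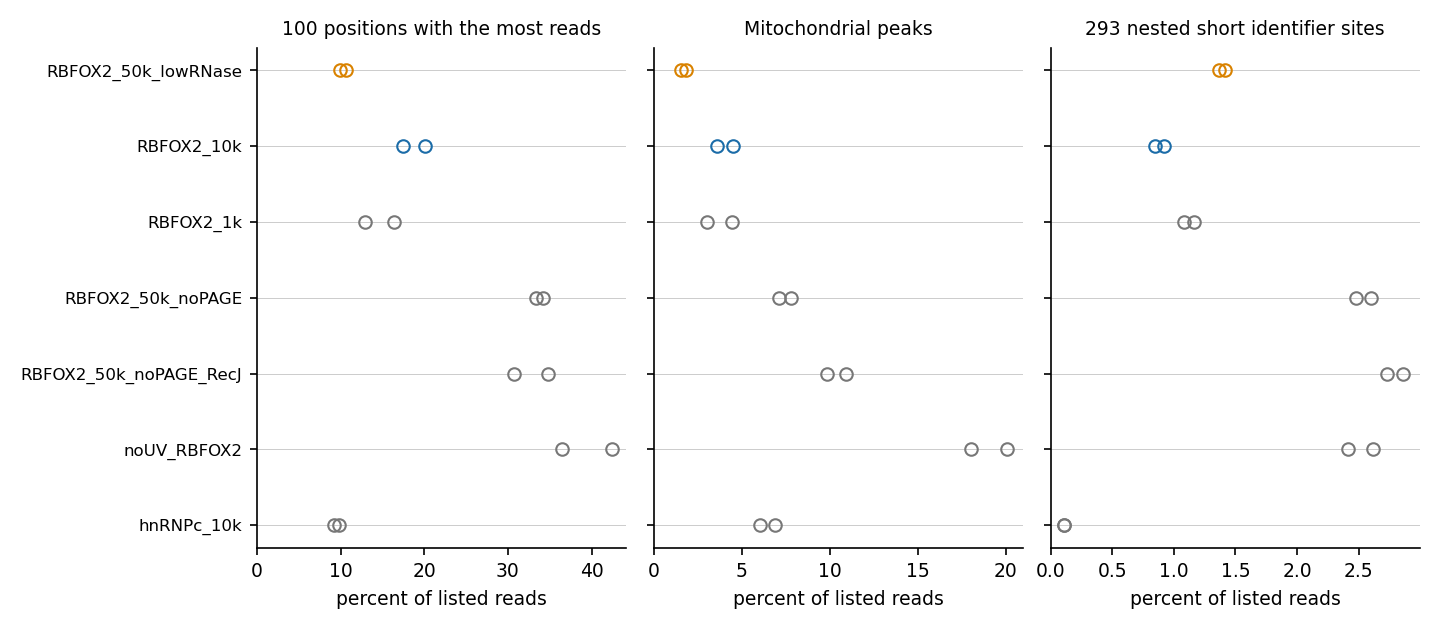
Circles give, for each of the 2 libraries of 7 groups, the percent of listed reads in the 100 positions with the most reads, in mitochondrial peaks and in the 293 nested sites. Both 10k libraries lie above both 50k_lowRNase libraries in the first and second panels and below them in the third.

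The called sites were looked up in the same way. A peak of an uncrosslinked library overlapped 31.9% of the higher, 43.4% of the lower and 11.9% of the sites not called. Called sites had more reads. Between 20 and under 100 mean reads the shares were 34.1%, 28.3% and 15.3%, and between 100 and under 500 they were 62.8%, 63.0% and 50.5%. In hnRNPc_10k the same 3 groups differed in another order, at 33.5%, 10.9% and 15.5% between 20 and under 100 mean reads. At 100 to under 500 mean reads they were 47.9%, 24.9% and 24.5%. The share of higher sites in these libraries was above that of both other groups in both ranges of reads. The hnRNPc_10k libraries are of another protein and share cell number, RNase dose and deposited block with RBFOX2_10k. These shared traits cannot be told apart here.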

How the data were processed

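TLC-CLIP peaks of RBFOX2 were compared between 2 libraries from 10000 and 2 from 50000 HEK293T cells, and 10 further libraries served as context. The labels' processing notes name bcl2fastq, STAR 2.7.3a, UMI-tools 1.0.1 and build hg19, and the file names name CLIPper. The caller's version and the annotation are not given in any source used here. The authors listed peaks per library, with a deposited p-value for each peak and, in the peak name, a gene identifier and a whole number taken here as reads. Whether the deposited p was adjusted is not stated.

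Peaks overlapping by at least 1 nt on the same strand in any of the 4 lists formed a site (pandas 2.3.3, bedtools 2.31.1). A position under several identifiers counted once among sites. Kept, lost and new mean listed in both libraries of 1 group and in both, neither or newly against the other. Read shares were tested with limma 3.58.1 in R 4.3.3 (lmFit, eBayes with trend, two-sided, Benjamini-Hochberg over all features tested, threshold 0.05). The pseudocount was 0.5 reads and the minimum 10 reads on average in features listed in all 4 libraries. No count model was used because the lists hold no unfiltered counts. The procedure was tested on simulated data. Kept, lost and new sites and genes were named by the highest read number of the lower library in each class, with 1 site per gene identifier. The rule for genes with symbols and the lists of genes by symbol could not be applied, since 0 of 16452 identifiers were matched to symbols. Members and lists were chosen with earlier results of these data known. Alternatives covered list length, thresholds, overlap, joining of peaks, scaling, pseudocount, replicate block and leaving out each library.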

Additional observations from a re-analysis of the deposited data

How the results depend on the processing

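The site gap between 10k and the 50k replicate, -15.1 points, was -21.9 for peaks with a deposited p below 1e-05 and -11.1 with lists of equal length, and -16.2 to -14.1 when a 10k library was left out. The gene gap, -6.60 points, was -11.2 for peaks with a deposited p below 1e-05, -13.4 for genes with at least 10 reads in their best peak, -7.85 to -5.35 when a 10k library was left out and 0.115, a reversed sign, with lists of equal length. Leaving out a 50k library leaves no replicate to set the gap against, so that was not computed. Called gene identifiers numbered 1049 to 3016 and called sites 626 to 2812 when 1 library was left out, in which case the lone library is assumed to vary like the others. Called sites numbered 3301 for peaks with a deposited p below 1e-05. With a replicate block there were 2747 called gene identifiers and 2322 called sites. Same-numbered libraries did not deviate together (r = 0.0039 over genes and 0.0051 over sites). Whether they share a culture or a preparation is not labelled. Of 223 alternative values of 21 named sites and genes, 221 kept their direction and their side of the threshold and 2 lost the call. These were the second kept site, given above, and the fifth higher site, at 2.09 without the first 10k library. The named higher and lower sites and gene identifiers had been chosen for large differences in these same libraries. Their calls were thus likely to hold, and the count is no independent check. Settings in which a member failed the filter or was left out gave no value and are not counted. For the read shares, joining peaks less than 30 nt apart and removing mitochondrial and top sites were added after seeing the data, as were the lost and new shares with lists of equal length. Places below the lists' lowest read numbers cannot be seen.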

Other observations

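The tested sites differed by chromosome. The median log2 difference in read share was -0.17 on chromosome 19, where 34 sites (1.37%) were higher and 114 (4.58%) lower at 10k of 2489 tested, beside 3.69% higher and 2.38% lower over all tested sites. It was -0.09 on chromosome 16, 0.25 on chromosome 13, 0.28 on chromosome 18 and 0.28 on the X chromosome, where 102 sites (8.06%) were higher and 22 (1.74%) lower of 1265 tested. The median of mean reads per site was 32 on chromosome 19, 29.8 on chromosome 16, 17.3 on chromosome 13, 17 on chromosome 18 and 23 on the X chromosome. Chromosome 21, with a median of 23.5 reads, had a median difference of -0.04. The part of read number in this order was not tested. Wider sites also had lower differences, with a median of 0.22 below 80 nt and -0.02 at 160 nt and more, where the median read number was 18.3 and 32.3.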
